A study of Homo sapiens with 40 samples.

Results

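KMS12, a human multiple myeloma line, was followed on 4 arrays over a single course of caspase-10 knockdown with the shRNA shCasp10-3. The arrays were chosen by their titles and are 4 of the 40 in the series, 1 each for days 2, 3, 4 and 5, that is 48, 72, 96 and 120 hours of induction. Each was a 2-colour lymphochip, a spotted array built around lymphoid genes. RNA of cells given 20 ng/ml doxycycline, which switches the shRNA on, was labelled with Cy5. The Cy3 channel held RNA of cells with the same retroviral vector, taken on that day and never given doxycycline. Both channels therefore share the transduction and the puromycin selection, and differ in both the doxycycline and the hairpin that it induces. No control hairpin was run in KMS12. A pair of further courses serves for comparison: KMS12 with shCasp10-2 (4 arrays, days 1 to 4), the same line with another hairpin against the same gene, and H929 with shCasp10-3 (4 arrays, days 2 to 5), another myeloma line with the same hairpin. In both of these, too, the reference was the uninduced culture of the same day. The labels do not say whether the days came from separate cultures or whether the cells were a clone.

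Caspase-10 is a death-receptor protease, a relative of caspase-8, that is recruited with FADD when Fas or TRAIL receptors are engaged. The series was named for its part in holding back autophagic death of myeloma cells, and its design asked which genes respond when caspase-10 is lost. Autophagy delivers cytoplasm to lysosomes for breakdown and recycling. Plasma cells, the normal counterpart of myeloma cells, secrete large amounts of antibody and lean on the unfolded protein response and the proteasome to handle the load.

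All values are log2 ratios of induced over uninduced cells, as read from the deposited log ratios. The labels name the dyes; no source says which dye is the numerator, and Cy5 over Cy3 is likely, being usual for such arrays. A value above 0 is taken as higher in induced cells. With days of 1 course as the replicates, p-values reflect day-to-day spread, not that between cultures. Every array has the same dye orientation, so any dye effect is part of each response. Probes of a gene were averaged, giving 9681 features, of which 4604 are named genes. A log ratio holds no level, so the plasma cell identity of the line could not be checked from it, and the targeted gene is the only check of the labels.

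The 4 arrays are among the narrowest of the series. The SD over the 15246 probes was 0.565, 0.604, 0.461 and 0.421 on days 2 to 5, which rank 8, 9, 4 and 1 of 40 from the narrowest. Their medians were -0.07, -0.07, -0.005 and -0.004. Days 2 and 3 carried a thin tail of low values, with 0.466% and 0.617% of the probes below -3, against 0% and 0.00656% on days 4 and 5. Wide arrays, on which over 10% of the probes lay beyond 3 in either direction, were found in both comparison courses: days 1 and 2 of KMS12 with shCasp10-2 (11.4% and 19.1%) and days 2 and 3 of H929 (14.6% and 17.8%). Over all features the 2 late arrays were the most alike, with Pearson's r of 0.604 between days 4 and 5. The r was 0.283 between days 2 and 3, and -0.102 between days 2 and 5. Days 2 and 5 thus share no common pattern over all features, and these values are a description across features of arrays from 1 course.

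CASP10 itself was below 0 on every day. The mean of its 6 probes was -0.24 on day 2, -0.39 on day 3, -0.33 on day 4 and -0.31 on day 5, a mean of -0.32 ± 0.0605 (SD, n = 4 days), or a ratio of 0.801. The 4 days lie close together and none reaches 0. The difference did not pass the test across all features (adjusted p = 0.156, limma with Benjamini-Hochberg adjustment). Of the 9681 features, 4.81% had a smaller p and 13.9% a lower mean, so the targeted gene does not stand apart from the rest by its size.

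The 6 CASP10 probes did not agree. Probe 28375_1 was the lowest, at -0.46, -0.67, -0.71 and -0.68 on days 2 to 5. Probe 28720_1 was at -0.36, -0.37, -0.51 and -0.74. Probe 17814_1 was at -0.42, -0.73, -0.47 and -0.34. These were below 0 throughout, and so was probe 17182_1, the steadiest, at -0.28, -0.31, -0.34 and -0.26. Probe 32624_1 was at -0.16, -0.38, 0.01 and 0.18, and probe 30438_1 at 0.23, 0.12, 0.03 and -0.04, so these last probes crossed 0. In all, 19 of the 24 probe values were below 0. With only the 5 probes whose mean was below 0, chosen after their values were seen, the mean was -0.40 (adjusted p = 0.152 in limma).

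**Figure D1:**
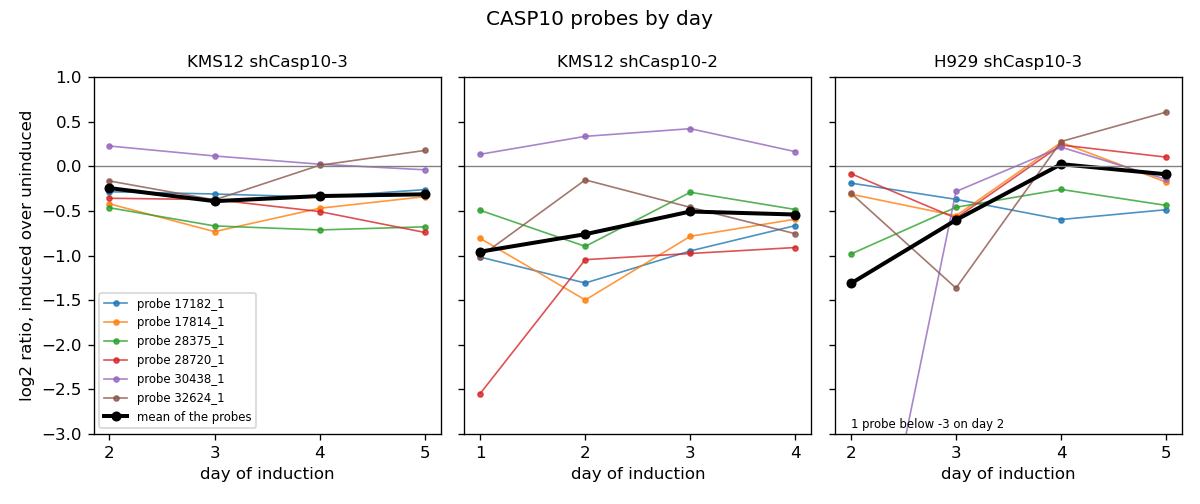
The log2 ratio of each CASP10 probe (thin lines) and of their mean (black) against the day of induction, for KMS12 shCasp10-3, KMS12 shCasp10-2 and H929 shCasp10-3. The KMS12 shCasp10-3 mean stays between -0.39 and -0.24, the KMS12 shCasp10-2 mean runs from -0.96 to -0.51, and 1 H929 probe at -6.01 on day 2 lies beyond the axis.

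The other hairpin gave lower CASP10 values in the same line. With shCasp10-2 the mean of the 6 probes was -0.96, -0.76, -0.51 and -0.54 on days 1 to 4, and over days 2 to 4 no value of one hairpin reached into the range of the other. The difference, shCasp10-3 minus shCasp10-2 over days 2 to 4, was 0.28 ± 0.14 (SE), with means of -0.32 and -0.60, and did not pass (adjusted p = 0.536, limma). In H929 with shCasp10-3 CASP10 was at -1.31 and -0.60 on the wide days 2 and 3 and at 0.03 and -0.09 on days 4 and 5, where KMS12 stood at -0.33 and -0.31. The -1.31 rests largely on probe 30438_1, at -6.01, as the other probes lay between -0.98 and -0.08 on that array. The H929 mean below includes this value. KMS12 minus H929 was 0.17 ± 0.297 (SE), with means of -0.32 and -0.49 and an adjusted p of 0.82 in limma. The sign turns to -0.29 without the wide arrays. Probe 30438_1 was above 0 on all 4 days with shCasp10-2.

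No feature passed in the response as a whole. With limma across the 9681 features, 0 had an adjusted p under 0.05 (0% called). At an unadjusted p under 0.05 there were 1961, of which 693 were higher (7.16%) and 1268 lower (13.1%). The smallest adjusted p was 0.0787, and 0.153 among named genes. Below, therefore, genes are described by their values, and none is said to have changed. Above 0 on all 4 days were 1075 features (11.1%), and below 0 on all 4 days 1905 (19.7%). After centring each array on its median these counts were 1326 and 1481, so the excess of features below 0 depends on the centring. Past 0.5 in the same direction on every day were 25 features above and 42 below, of which 6 and 8 were named genes.

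Leaving out day 2 alone gave calls. On days 3 to 5, 21 features passed in limma, all higher, and 2 of them were named genes, BCAR3 and LINC02806. All 21 shared an adjusted p of 0.04996 in limma, just under the threshold. BCAR3, an adaptor protein of cell adhesion signalling, was at -4.92 on day 2 and at 1.23, 1.11 and 1.09 on days 3 to 5. LINC02806, a long noncoding RNA, was at -0.84 and then at 1.27, 1.17 and 1.38. Day 2 stands below the other days in both. Of the 21 features, 17 were below 0 on day 2.

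Among named genes above 0 on all 4 days, AXL had the smallest p. AXL, a receptor tyrosine kinase for GAS6, was at 1.70, 1.00, 1.03 and 0.94 on days 2 to 5, a mean of 1.16 ± 0.357 (SD, n = 4 days), or a ratio of 2.24. Its 2 probes averaged 0.46 and 1.87, so the size depends on the probe. In KMS12 with shCasp10-2 AXL was at 1.23, 1.56 and 0.58 on days 2 to 4, all above 0. In H929 it was at -3.10, -2.54, -1.05 and 0.56, below 0 on 3 of the 4 days, and the difference between the lines was 2.69 ± 0.763 (SE) with an adjusted p of 0.683 in limma. Without the wide H929 days the H929 mean was -0.24 and the difference 1.41.

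NUGGC, a nuclear GTPase of germinal centre B cells, had the largest mean of the genes chosen by p, 1.65 ± 0.762 (SD, n = 4 days), from 0.99, 2.62, 1.10 and 1.87. It was also above 0 on days 2 to 4 with shCasp10-2 (0.72, 1.42 and 0.74). ZNF653, a zinc finger repressor, was at 1.42, 0.44, 1.02 and 1.56. CCNDBP1, which binds cyclin D1 and acts as an inhibitor of helix-loop-helix factors, was at 0.76, 0.56, 1.23 and 0.72, while with shCasp10-2 its 3 matched days were between -0.29 and -0.07. The CCNDBP1 probes differed, with means of 0.22 and 1.41. USP8, a deubiquitinase of endosomal sorting, was among the steadiest at 0.43, 0.42, 0.56 and 0.55. So was COTL1, an actin-binding protein, at 0.40, 0.48, 0.53 and 0.49. The nucleolar protein NOC3L was at 0.67, 0.65, 0.58 and 0.41. Each of these genes had an adjusted p of 0.153 in limma, and each has 1 probe except AXL, CCNDBP1 and USP8, which have 2.

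FOSB, an AP-1 factor of the immediate-early response, was at 0.50, 0.49, 0.99 and 0.50. Day 4 stands alone there, and the other 3 days lie within a narrow range. CCND2, cyclin D2, was at 0.00, 0.79, 0.49 and 1.07. It was at the reference on day 2 and above it from day 3. RIN3, a RAB5 exchange factor, averaged 0.53 ± 0.143 (SD, n = 4 days), but its probes differed, with means of 0.02 and 1.03. PPP2R1A, a scaffold subunit of protein phosphatase 2A, averaged 0.69, with 1 of its 3 probes below 0 at -0.29 and another at 2.57.

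Among named genes below 0 on all 4 days the smallest p belonged to HEATR6, a HEAT-repeat protein read by 1 probe, at -0.99, -1.07, -0.74 and -0.76 (mean -0.89 ± 0.165, SD, n = 4 days, a ratio of 0.539). FRAT2, a regulator of GSK-3 in Wnt signalling, was at -0.94, -0.86, -1.08 and -0.54. SKA3, a kinetochore component, was at -0.43, -0.79, -0.76 and -0.57. BMAL1, a core clock transcription factor, was at -0.61, -0.58, -0.47 and -0.41. None of these genes came within 0.4 of the reference on any day. NCOA4, the receptor that brings ferritin to autophagosomes, was at -0.52, -0.54, -0.79 and -0.41, and with shCasp10-2 it was at -0.83, -0.81 and -0.63 on days 2 to 4, below 0 with both hairpins. SEC23B, a COPII coat protein of export from the endoplasmic reticulum, was at -0.74, -1.07, -0.80 and -0.41 with both probes below 0. MPG, a DNA glycosylase, was at -0.44, -0.64, -0.72 and -0.55.

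Other genes below 0 were chosen for having several probes, each with a mean below 0. LAMP2, a lysosomal membrane protein needed for the fusion of autophagosomes with lysosomes, had the lowest mean of these, -1.09 ± 0.631 (SD, n = 4 days), a ratio of 0.468 (adjusted p = 0.154, limma). It was at -1.99 on day 2, -0.99 on day 3, -0.88 on day 4 and -0.52 on day 5, and its 2 probes averaged -1.27 and -0.92. The values move toward 0 over the course, with a slope of 0.45 per day that did not pass (adjusted p = 0.339, limma). In H929 with shCasp10-3 LAMP2 was at -1.30 and -3.09 on the wide days 2 and 3 and at -0.56 and 0.05 on days 4 and 5. KMS12 minus H929 was 0.13 (adjusted p = 0.943, limma), and -0.84 without the wide H929 days. With shCasp10-2 LAMP2 was at -0.07, -0.19 and -0.07 on days 2 to 4, close to the reference. The difference between the hairpins, -1.18, did not pass (adjusted p = 0.53, limma).

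CLPP, a mitochondrial matrix protease, was at -0.57, -0.75, -1.40 and -0.59. HNRNPM, a splicing factor, was at -0.47, -0.91, -1.25 and -0.61. Both were lowest on day 4. CLPP was below 0 on every day of both comparison courses that was matched, from -1.10 to -0.25. MED16, a Mediator subunit, was at -1.20, -1.11, -0.78 and -0.34. RAD51C, a recombination repair protein, was at -1.72, -1.62, -0.23 and -0.13, with probe means from -2.40 to -0.13, and the uridine kinase-like UCKL1 at -1.05, -1.76, -0.31 and -0.09. These last 3 lay lowest on days 2 and 3 and closest to the reference on day 5.

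**Figure D2:**
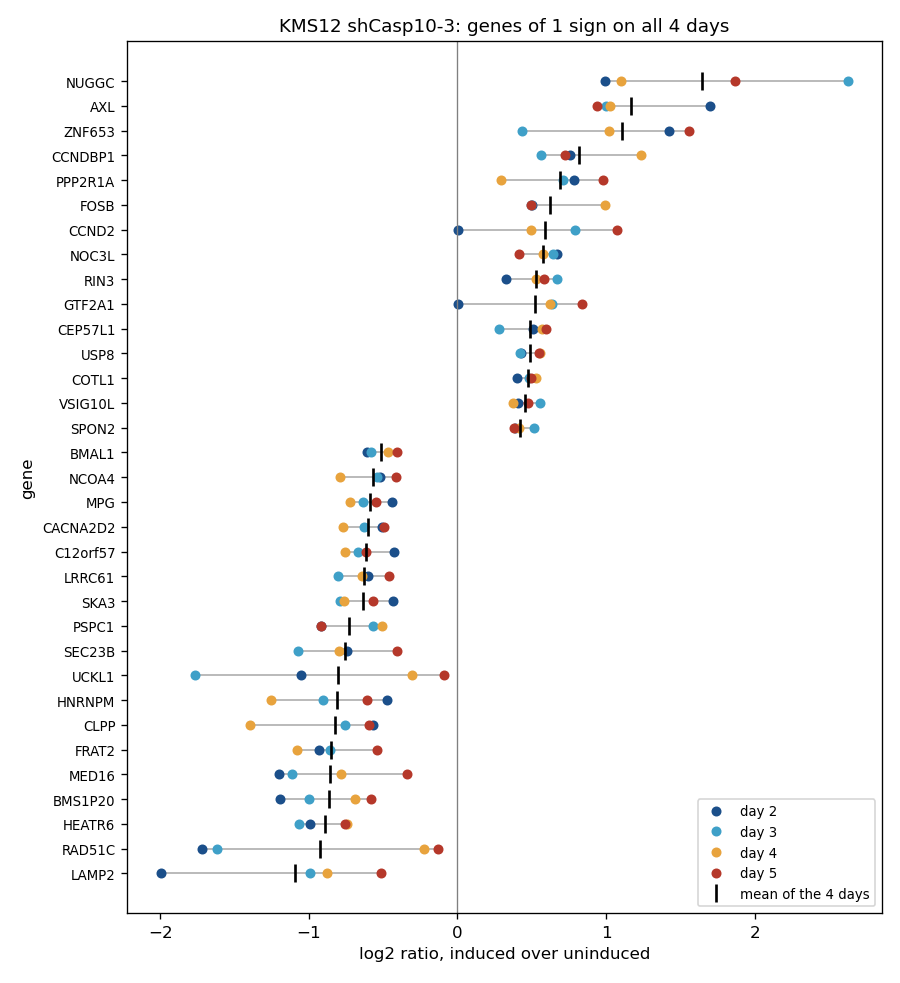
The log2 ratio on each day (coloured points) and the mean of the 4 days (black bars) for 33 genes of 1 sign on all 4 days, chosen by the smallest p or by the agreement of their probes. NUGGC has the highest mean (1.65) and LAMP2 the lowest (-1.09), and none passed the test across all features.

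Genes around caspase-10 showed no common direction. Of 13 measured genes of the caspase-10 and death receptor list, 1 was above and 3 below 0 on all 4 days, 7.69% and 23.1%, beside 11.1% and 19.7% of all features, and 0 passed. The list includes CASP10, the targeted gene, which is 1 of the 3 below. CASP9, the initiator of the mitochondrial pathway, was at -0.43, -0.63, -0.30 and -0.05. FAS, a death receptor, was at 0.24, 0.20, 0.22 and 0.10, with its 4 probes all above 0. TNFSF10, the death ligand TRAIL, was at -0.85, -0.64, -0.10 and 0.01, and CASP8, the nearest relative of caspase-10, at -0.15, -0.11, -0.17 and -0.12. CASP9 and TNFSF10 were nearest the reference on day 5, while FAS kept a narrow range above it. In the BCL2 family, which sets the threshold of mitochondrial death, 5 of 14 were below 0 on all 4 days (35.7%) and none above. On centred arrays 3 were below (21.4%, beside 15.3% of all features). BAK1, a pore-forming effector, had the smallest p of the family, at -0.35, -0.41, -0.28 and -0.21.

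The autophagy and lysosome lists were thinly measured. Of 29 autophagy genes listed, 10 were on the array, of which 2 were below 0 on all 4 days, none above, and their median was 0.01. GABARAPL2, an ATG8 family member, was at -0.03, -0.07, -0.33 and -0.36, and PIK3C3, the lipid kinase VPS34, at -0.28, -0.27, -0.06 and -0.02. Their largest distance from 0 fell at opposite ends of the course. Of 12 measured lysosome genes 4 were below (33.3%) and 2 above (16.7%), beside 19.7% and 11.1% of all features. On centred arrays 2 were below (16.7%, beside 15.3% of all features) and 2 above. LAMP1, the other main lysosomal membrane protein, was at -0.05, -0.25, -0.66 and -0.45, lowest on day 4, while LAMP2 was lowest on day 2. The hydrolases HEXA (0.12, 0.17, 0.30 and 0.36) and LIPA (0.32, 0.21, 0.20 and 0.11) were above 0 throughout.

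Glycolysis and hypoxia genes lay below the reference more often than features in general. Of 29 measured, 11 were below 0 on all 4 days (37.9%, beside 19.7% of all features) and 3 above. At an unadjusted p under 0.05 in limma 9 were lower (31.0%, beside 13.1%) and 0 passed after adjustment. The median over the members was -0.24, beside -0.05 over all features. After centring the arrays, 8 members (27.6%) were below 0 on all 4 days and 3 above, beside 15.3% of all features below.

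SLC2A1, the glucose transporter GLUT1, was at -0.32, -0.50, -0.79 and -0.65, a mean of -0.56 ± 0.201 (SD, n = 4 days), with both probes below 0. PKM, pyruvate kinase, was at -0.37, -0.67, -1.45 and -0.64. ADM, the hypoxia-induced peptide adrenomedullin, was at -0.18, -0.26, -0.47 and -0.44, and ALDOA, aldolase A, at -0.18, -0.29, -0.57 and -0.38. All of these were nearest 0 on day 2 and lowest on day 4. The list median was -0.06 on day 2, -0.23 on day 3, -0.28 on day 4 and -0.18 on day 5. In KMS12 with shCasp10-2 the list median was -0.12, -0.12 and -0.07 on days 2 to 4. The median of all features there was -0.39, -0.13 and -0.04. In H929 the list median was 0.04, -0.13, -0.20 and -0.08 on days 2 to 5. All features of H929 had medians of -0.36, -0.41, -0.01 and 0.02. The list thus lay above all features on the wide days of both courses.

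Many promoters of this list carry ACGTG, a form of the core of the hypoxia response element, the site that HIF-1 binds. The letters ACGTG, or CACGT on the other strand, were searched in the 250 bases before the start of each gene in the RefSeq promoter table (GRCh38.p14). The letters are part of the E-box CACGTG as well, which MYC and USF bind. They occurred in 13 of the 26 list members with an entry (50%) and in 18.7% of all 27305 promoters. Among the 11 members below 0 on all 4 days 5 held them, and among the other 15 members 8 did, so the match does not separate them. The promoters of SLC2A1, PKM and ADM hold neither ACGTG nor CACGT in this window. That of ADM holds GCGTG, a form that was not searched.

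The promoters of ALDOA, ENO2 and SIAH2 are shown because these 3 of the 11 hold the letters and have the smallest p among those that do. Each is written 5′ to 3′ on the strand of its gene and ends at the base before the start, with the matches in capitals.
ALDOA, chr16:30064029-30064278, plus strand: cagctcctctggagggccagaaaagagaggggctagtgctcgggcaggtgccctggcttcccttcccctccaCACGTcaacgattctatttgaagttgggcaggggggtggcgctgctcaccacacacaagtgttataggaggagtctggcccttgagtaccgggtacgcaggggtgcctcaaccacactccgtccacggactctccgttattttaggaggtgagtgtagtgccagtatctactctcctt
ENO2, chr12:6914330-6914579, plus strand: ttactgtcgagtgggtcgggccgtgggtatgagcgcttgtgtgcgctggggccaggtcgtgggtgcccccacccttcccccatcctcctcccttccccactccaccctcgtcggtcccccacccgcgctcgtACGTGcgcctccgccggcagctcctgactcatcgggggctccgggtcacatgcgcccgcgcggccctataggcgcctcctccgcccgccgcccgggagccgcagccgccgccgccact
SIAH2, chr3:150763170-150763419, minus strand: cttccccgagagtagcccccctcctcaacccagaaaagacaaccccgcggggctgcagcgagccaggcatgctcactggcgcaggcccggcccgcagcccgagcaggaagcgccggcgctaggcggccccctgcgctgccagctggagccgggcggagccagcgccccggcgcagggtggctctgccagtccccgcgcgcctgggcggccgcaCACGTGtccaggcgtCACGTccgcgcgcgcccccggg

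ENO2, the neuronal form of enolase, was at -0.33, -0.84, -0.28 and -0.30 on days 2 to 5. SIAH2, a ubiquitin ligase that acts on the prolyl hydroxylases which restrain HIF-1, was at -0.21, -0.27, -0.35 and -0.28 with all 5 probes below 0. The match lies 178 bases before the start in ALDOA and 118 in ENO2. In SIAH2 the full E-box starts 37 bases before the start and a further CACGT 22 bases before it.

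In the biosynthesis and division lists, as in the glycolysis list, the median was lowest on day 4. It was -0.27 then in the MYC and ribosome biogenesis list, -0.35 in the proteasome list, -0.30 in the DNA replication list and -0.18 in the mitosis list. Of 18 measured genes of the MYC and ribosome biogenesis list 9 were below 0 on all 4 days (50%) and 1 above, with a median of -0.18. PA2G4, a ribosome biogenesis factor, was at -0.30, -0.73, -0.65 and -0.21, and FBL, the nucleolar methyltransferase fibrillarin, at -0.14, -0.29, -0.75 and -0.36. Of 11 proteasome and ubiquitin genes 5 were below (45.5%) and none above, and all 11 means were below 0. PSMB6, a catalytic subunit of the proteasome core, was at -0.19, -0.37, -0.81 and -0.56. In the mitosis list 12 of 34 were below (35.3%) and 3 above, and in the DNA replication list 7 of 24 were below (29.2%) and 3 above. MAD2L1, a spindle checkpoint protein, was at -0.17, -0.61, -0.46 and -0.30, and TK1, thymidine kinase, at -0.16, -0.19, -0.77 and -0.39. None of these list members passed. Centred arrays left 7, 5, 8 and 5 members below 0 on all 4 days in these 4 lists, that is 38.9%, 45.5%, 23.5% and 20.8%, beside 15.3% of all features.

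**Figure D3:**
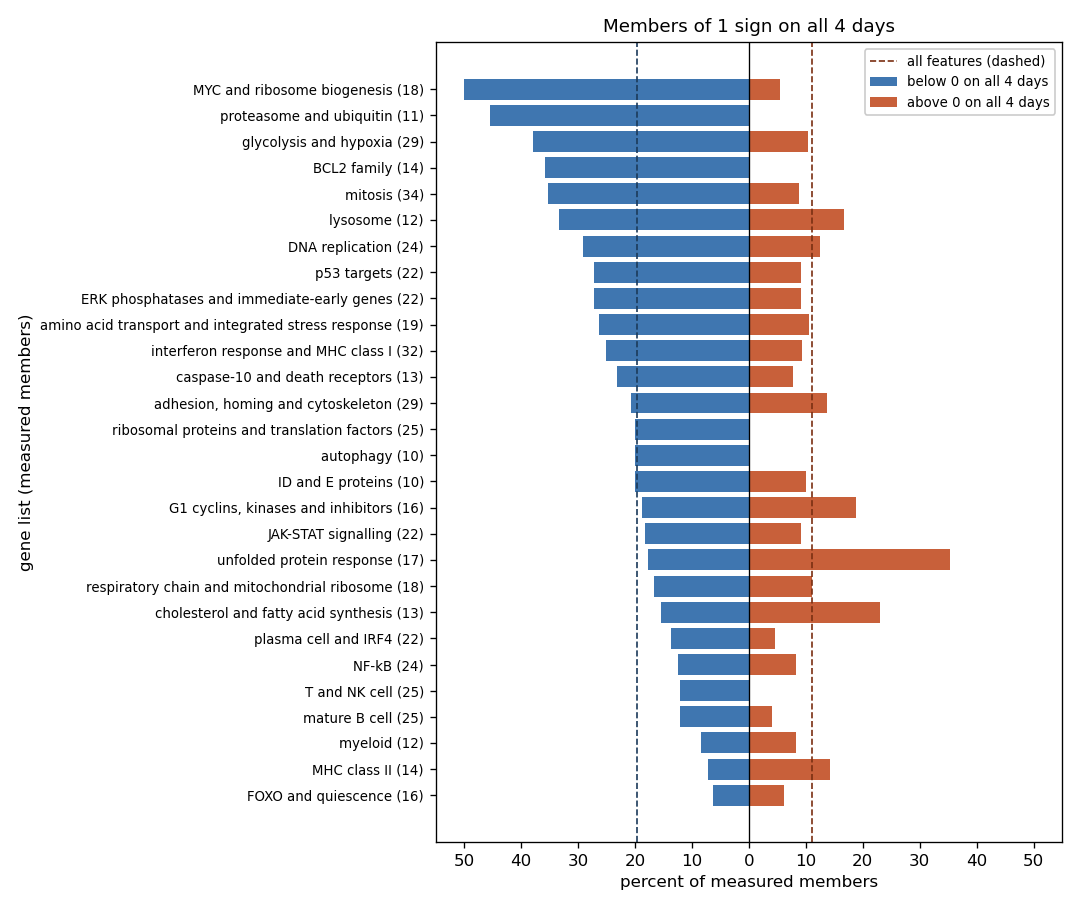
The percent of measured members below 0 (left, blue) and above 0 (right, orange) on all 4 days for the gene lists with 10 or more measured members, in brackets, with dashed lines for all features (19.7% and 11.1%). The MYC and ribosome biogenesis list reaches 50% below, and the unfolded protein response list has the highest share above, 35.3%.

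The unfolded protein response list leaned the other way. Of 17 measured, 6 were above 0 on all 4 days (35.3%, beside 11.1% of all features) and 3 below, with a median of 0.10 and 0 at an unadjusted p under 0.05 in limma. EIF2AK3, the sensor kinase PERK, was at 0.34, 0.27, 0.12 and 0.09, and the sensor ATF6 at 0.27, 0.26, 0.10 and 0.09. HSP90B1, the chaperone GRP94, was at 0.48, 0.24, 0.07 and 0.02. Each was highest on day 2 and nearest 0 on day 5. The amino acid transport and integrated stress response list had 5 of 19 below (26.3%, beside 19.7% of all features) and 2 above. SLC3A2, the heavy chain of the LAT1 transporter, was at -0.20, -0.26, -0.77 and -0.41.

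In lipid synthesis the members parted. FASN, fatty acid synthase, was at -0.60, -0.74, -0.96 and -0.41, and SREBF2, the transcription factor of sterol synthesis, at -0.35, -0.49, -0.41 and -0.57. Both stayed below -0.3 on each day. SQLE, a sterol synthesis enzyme, was at 0.39, 0.36, 0.14 and 0.12, and INSIG1, which retains SREBP in the endoplasmic reticulum, at 0.15, 0.20, 0.18 and 0.29. Over the list of 13 measured, 3 were above and 2 below on all 4 days, with a median of 0.14.

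Signalling lists gave single genes rather than a common direction. DUSP5 and DUSP4, phosphatases that switch off ERK, were at -0.29, -0.65, -0.44 and -0.41 and at -0.36, -0.66, -0.41 and -0.19. Both were lowest on day 3 with all their probes below 0, while FOSB of the same list was above 0. Of the 22 measured members of that list 6 were below and 2 above. IRF1, an interferon-induced transcription factor, was at -0.46, -0.67, -1.05 and -0.36, and TRAF3, a brake on non-canonical NF-kB signalling, at -0.39, -0.59, -0.93 and -0.50. RELB, a subunit of that pathway, was at -0.78, -0.53, -0.54 and -0.04. SOCS1, an inhibitor of JAK-STAT signalling, was at -0.27, -1.07, -0.51 and -0.35. ID3, an inhibitor of E proteins, was at -0.58, -0.36, -0.35 and -0.16, below 0 in all 3 probes, while in H929 it was between -0.09 and 0.50. CDKN1B, the cell cycle inhibitor p27, was at 0.32, 0.25, 0.42 and 0.21, and its target partner CDK4 at -0.08, -0.36, -0.73 and -0.38. The interferon and MHC class I list held 8 of 32 below and 3 above, and the G1 cyclin list 3 of 16 in either direction.

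In the remaining lists between 0 and 6 members lay below 0 on all 4 days. The plasma cell list had 3 of 22 below and 1 above; SDC1, the plasma cell surface marker CD138, was at -0.09, -0.19, -0.69 and -0.32, and FGFR3, a receptor kinase translocated in some myelomas, at -0.71, -0.92, -0.30 and -0.01. The 8 plasma cell marker genes had medians of 0.08, -0.06, -0.09 and -0.11 on days 2 to 5. The ribosomal protein list had 5 of 25 below and none above, the respiratory chain list 3 of 18 below and 2 above, the p53 targets 6 of 22 below and 2 above, and the JAK-STAT list 4 of 22 below and 2 above. The NF-kB list had 3 of 24 below and 2 above, the adhesion list 6 of 29 and 4, the MHC class II list 1 of 14 and 2, and the ID and E protein list 2 of 10 and 1. Heat shock genes numbered 2 of 5 below and none above, and histones 1 of 6 below and none above. Of 16 FOXO and quiescence genes 1 lay in either direction, and of 7 erythroid and platelet genes none did. These shares lay on both sides of those of all features: 40% of the heat shock genes were below 0 on all 4 days, but 7.14% of the MHC class II genes.

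The change over the course was tested as a slope per day. No feature passed in limma (0% called), and at an unadjusted p under 0.05 there were 1191 slopes above 0 (12.3%) and 61 below (0.63%), with a smallest adjusted p of 0.333. The steepest of the small p values belonged to TAF4B, a subunit of a TFIID form found in B cells, at -3.80, -2.25, 0.51 and 1.83, a slope of 1.97 ± 0.14 (SE) per day. NFAT5, the transcription factor of osmotic stress, was at -1.72, -0.91, -0.09 and 1.25. MSC, a helix-loop-helix repressor of B cell genes, was at -1.46, 0.18, 0.96 and 1.87. COL6A2, a collagen chain, was at -1.18, -0.40, 0.87 and 1.31. In these genes each day is higher than the one before. Going the other way were TBC1D2B, a RAB-binding protein (0.74, 0.22, -0.13 and -0.32), and MGST2, a glutathione transferase (1.87, 0.95, 1.03 and -0.11).

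Leaving out day 3 gave calls here, 188 features with 185 slopes above 0, of which 43 were named genes and 42 of those above 0. TAF4B, NFAT5, MSC and COL6A2 were among them, with adjusted p values in limma of 0.0226, 0.0262, 0.0226 and 0.0324. Without any other single day there were 0. The fit without day 3 rests on days 2, 4 and 5 alone. TAF4B, NFAT5, MSC and COL6A2 had already been picked by their slopes over the whole course, where they did not pass.

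In the lists of other blood lineages most slopes were above 0. Over all features 57.5% of the slopes were above 0. Of 25 measured mature B cell genes 24 had a slope above 0 and 10 did so at an unadjusted p under 0.05 in limma (40%, beside 12.3% of all features), and of 25 T and NK cell genes 22 and 10. Of 12 myeloid genes all 12 had a slope above 0, 1 of them at that p. None passed after adjustment. The mature B cell median was -0.40, -0.15, 0.08 and 0.15 on days 2 to 5, and the T and NK cell median -0.24, -0.21, 0.06 and 0.28. CD37, a B cell tetraspanin, was at 0.06, 0.18, 0.47 and 0.85. CD22, a B cell receptor inhibitor, was at -0.73, -0.85, -0.01 and -0.32, and BLK, a B cell kinase, at -0.32, -0.50, -0.46 and -0.21. The members thus differed among themselves, and CD37 is the one of these with every day above 0.

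The same lists were far lower on the wide arrays of the other courses. The mature B cell median was -2.04 on day 2 of KMS12 with shCasp10-2 and -2.24 on day 3 of H929, and it was -0.14 on day 4 of the first and 0.14 and 0.20 on days 4 and 5 of the second. Day 2 of KMS12 with shCasp10-3, over all features, correlated with days 1 and 2 of the shCasp10-2 course at Pearson's r of 0.379 and 0.358 and with its own days 4 and 5 at -0.065 and -0.102. The thin tail of low values on days 2 and 3 moves with the slopes, and its part in them was not tested. Both channels held cells of the same line, so these lists do not count cells of other lineages. Without intensities, whether these genes were read above background is unknown. A ratio of bulk RNA also cannot tell a change in all cells from a change in some of them.

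**Figure D4:**
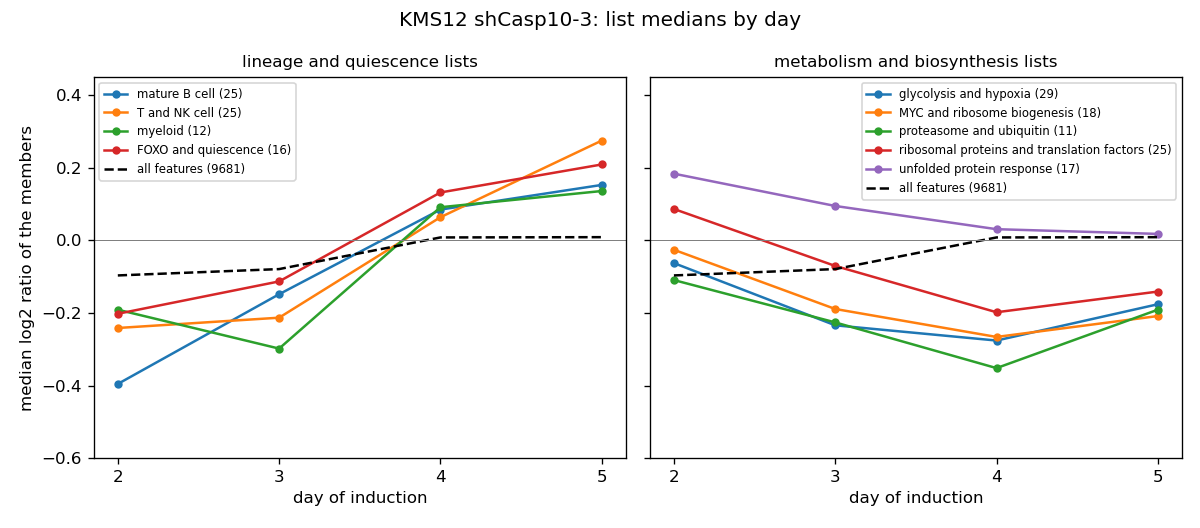
The median log2 ratio of the members of each list (measured members in brackets) on days 2 to 5 of KMS12 shCasp10-3, with all features as a dashed line. The lineage and quiescence lists run from below 0 on day 2 to above 0 on day 5, while the metabolism and biosynthesis lists are lowest on day 4, except the unfolded protein response list, which is lowest on day 5.

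Compared with the other hairpin in KMS12 over days 2 to 4, 10 features passed in limma (0.103% called), all higher with shCasp10-3, and 882 had an unadjusted p under 0.05. The values with shCasp10-3 lie near the reference in all 10, between -0.60 and 0.40, and those with shCasp10-2 between -6.04 and -2.99. KCNQ1, a potassium channel, was at -0.11, -0.08 and 0.02 with shCasp10-3 and at -4.66, -5.02 and -4.24 with shCasp10-2, a difference of 4.59 ± 0.228 (SE, adjusted p = 0.0171, limma). FNIP1, a folliculin partner in nutrient sensing at the lysosome, was at -0.48, -0.18 and 0.03 against -3.69, -4.12 and -4.40 (difference 3.86, adjusted p = 0.025 in limma). PPIL4, a peptidyl-prolyl isomerase, was at -0.18, -0.22 and 0.13 against -3.30, -2.99 and -3.31 (difference 3.11, adjusted p = 0.0222 in limma, with its 2 probe means for shCasp10-3 on either side of 0). These genes were picked by this difference, so the separation of the groups follows from the choice. On days 2, 3 and 4 of shCasp10-2, 19.1%, 5.98% and 0.918% of the probes lay below -3. KCNQ1 and an unnamed probe that also passed held the same values, -5.23 and -4.66, on days 1 and 2 of shCasp10-2. HEATR6 was at -4.66 on that day 2 as well. JAZF1, which did not pass, and a further unnamed probe that passed shared -4.58 on day 3 of shCasp10-2. FNIP1 and JAZF1 shared -5.67 on day 3 of H929. Identical low values thus recur across different genes. Whether these low values lie near background was not tested, as no intensities were given. KCNQ1 stayed between -1.06 and 0.36 in H929, while FNIP1 was at -6.80 and -5.67 on the wide days of H929 and at 0.39 and 0.13 on days 4 and 5.

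The count for KMS12 shCasp10-3 minus KMS12 shCasp10-2 depends on single arrays. Leaving out day 2, 3 or 4 of shCasp10-3 left 0 features, and without day 2, 3 or 4 of shCasp10-2 there were 16, 5 and 384. Day 2 of shCasp10-2 is the wide array of this comparison. Features lower with shCasp10-3 did not pass. VPS39, a subunit of the HOPS complex that tethers vesicles to lysosomes, was at -0.40, -0.15 and -0.38 against 0.66, 0.62 and 0.48, and RRAGA, a GTPase that recruits mTORC1 to lysosomes, at 0.09, -0.14 and -0.39 against 1.02, 0.89 and 0.45. FTL, the ferritin light chain with 10 probes, was at -0.17, -0.34 and -0.57 against 0.19, 0.29 and 0.33. Each of these, picked by a small p, was lower with shCasp10-3 on every matched day. Their adjusted p values in limma were 0.311, 0.53 and 0.53. C12orf57, a small protein of unsettled function, was at -0.43, -0.67 and -0.75 against 0.06, -0.01 and -0.11.

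Compared with H929 under the same hairpin over days 2 to 5, 0 features passed in limma (0% called), 479 had an unadjusted p under 0.05 and the smallest adjusted p was 0.0536. UGCG, which makes glucosylceramide, was at 0.15, 0.08, 0.31 and 0.24 in KMS12 and at -0.52, -0.57, -0.49 and -0.26 in H929. TOPBP1, a DNA damage checkpoint protein, was at 0.39, 0.21, 0.27 and 0.44 against -1.13, -0.53, -0.38 and -0.28. CARD18, an inhibitor of caspase-1, was at 0.28, 0.08, 0.62 and 0.43 against -0.36, -0.52, -0.57 and -0.30. In these genes every KMS12 value is above every H929 value, which largely follows from their choice by the smallest p. FGD3, a CDC42 exchange factor, went the other way, at -0.12, -0.18, -0.20 and -0.29 against 0.72, 0.47, 0.51 and 0.22, and so did RPS25, a ribosomal protein, at -0.10, -0.36, -0.47 and -0.29 against 0.24, 0.28, 0.27 and 0.06. Each had an adjusted p of 0.683 in limma. Without the last H929 array, day 5, 4 features passed, all higher in KMS12.

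Features of a steady sign in KMS12 shCasp10-3 were followed on arrays of 4 other courses, which share none of its RNA but do share its dye orientation. Arrays of H929 with shCasp10-2, of OCI-Ly7 and of SKMM1 against uninduced cells were not followed in this way. Of the 257 features below -0.3 on all 4 days, 82.9% were below 0 on day 4 of KMS12 with shCasp10-2, beside 56.6% of all features, and 90.3% and 78.6% on its days 2 and 3, beside 69.8% and 63.6%. In H929 it was 80.2% and 99.6% on the wide days 2 and 3, beside 67.9% and 72.1%, and 91.1% and 82.5% on days 4 and 5 of H929, beside 50.6% and 48.5%. On the arrays of SKMM1, a further myeloma line, with shCasp10-2 against a control shRNA, where both channels were induced, the share was between 77.4% and 84.1%, beside 46.1% to 48.5%. In OCI-Ly19, a lymphoma line included as a control, it was 62.7% and 63.0%, beside 48.0% and 48.7%. Of the 80 features above 0.3 on all 4 days, 61.3%, 65% and 75% were above 0 on days 2 to 4 of KMS12 with shCasp10-2, beside 30.2%, 36.4% and 43.3% of all features. In H929 the share was 17.5% and 23.8% on the wide days 2 and 3, beside 32.1% and 27.8%, and 61.3% and 75% on days 4 and 5, beside 49.3% and 51.4%. In OCI-Ly19 it was 72.5% and 73.8%, beside 51.9% and 51.3%. Against the control shRNA in SKMM1 the share was between 43.8% and 62.5%, beside 51.5% to 53.9%. The low features were thus below 0 more often than all features on each of these arrays, while the high features were above 0 less often than all features on the wide H929 days and on days 1 to 3 of SKMM1. The part of the dye in this recurrence was not tested, and features are not independent replicates.

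**Figure D5:**
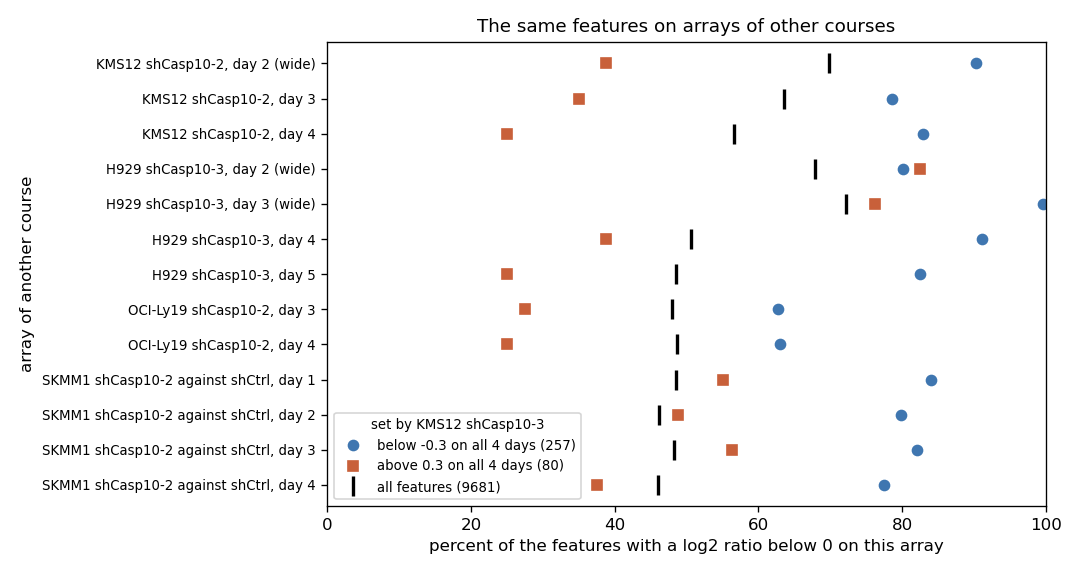
The percent of features below 0 on arrays of KMS12 shCasp10-2 and H929 shCasp10-3 on matched days, OCI-Ly19 shCasp10-2 (days 3 and 4) and SKMM1 shCasp10-2 against a control shRNA, for the 257 features below -0.3 on all 4 days of KMS12 shCasp10-3 (blue circles), the 80 above 0.3 (orange squares) and all 9681 features (black bars). The blue circles lie to the right of the black bars on every array shown, and the orange squares lie to the right of them on both wide arrays of H929 and on days 1, 2 and 3 of SKMM1.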

How the data were processed

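The authors deposited 1 log ratio per probe and array (15246 probes, 40 arrays, 0 missing values), read here as log2; per the labels, Cy5 held induced cells. No source used here gives the base, background correction or normalization. An array gives no read depth, and the number of arrays limits the precision.

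GEO's platform annotation gave 1 symbol for 10169 probes, several for 4 and none for 5073. Probes of a gene were averaged and unnamed probes kept singly, giving 9681 features. Responses, slopes and differences were estimated by lmFit and eBayes of limma 3.58.1 under R 4.3.3 (two-sided, Benjamini-Hochberg over all features, threshold 0.05) and tested on simulated data. Alternatives were centring, single probes, weights, the day as a replicate block, and leaving out wide or single arrays.

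Members and gene lists were chosen with earlier results of these data known. Named are CASP10; per direction the 12 genes of 1 sign on all 4 days with the smallest p; the 6 with the largest mean among those with 2 or more probes of 1 sign; up to 4 members per list with the smallest p; 5 per direction for slopes; and 6 per direction for differences. Not all are described. Genes outside the rule were chosen after their values were seen.

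Replicate numbers follow the days. Deviations from the group means on the same day correlated at 0.23, 0.13, 0.35 and 0.45 with H929 shCasp10-3. There, day 2 matched day 3 of H929 best. With KMS12 shCasp10-2 the values were 0.27, 0.01 and 0.4, and day 3 matched day 2 of shCasp10-2 best. Neither course is thus cleanly paired by day, and the main fits of the differences held no pairing.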

Additional observations from a re-analysis of the deposited data

Results flagged for a closer look

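AXL on day 2, at 1.70, stood apart from its other days, which were between 0.94 and 1.03. FOSB on day 4, at 0.99, stood apart from its other days, which were between 0.49 and 0.50. These are 2 of 36 sets of 4 days compared by Dixon's ratio, and chance alone gives about 1 in 20. The sets were genes, the array medians and the array SDs.

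The responses of 3 named genes differed between the hairpins in KMS12 by a test of the difference itself, with limma over all features on days 2 to 4. KCNQ1 differed by 4.59, FNIP1 by 3.86 and PPIL4 by 3.11 on the log2 scale, each higher on 3 of 3 days with shCasp10-3. Leaving out any one of the 3 shCasp10-3 arrays ended these calls, with adjusted p values in limma from 0.153 to 0.219, while the differences stayed between 3.00 and 4.61. Leaving out day 3 of shCasp10-2 also ended the calls of FNIP1 (adjusted p = 0.115, limma) and PPIL4 (adjusted p = 0.0658, limma). In each, shCasp10-3 lay near the reference and shCasp10-2 below it.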

How the results depend on the processing

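No feature passed for the response under centring, single probes, genes with 2 or more probes, a day term, robust eBayes, array weights or the fit of all 40 arrays; leaving out 1 day gave 0 to 21. Leaving out 1 day gave 0 to 188 for the change with day. With days 4 and 5 only, chosen after seeing the data, 3663 features were above and 3450 below 0 on both days. For KMS12 shCasp10-3 minus KMS12 shCasp10-2, where 10 passed, the day as a replicate block gave 0, every array of both groups 27, leaving out the wide array 16 and array weights 4516, with weights that did not converge (from 0.112 to 16.8); leaving out 1 array gave 0 to 384. For KMS12 shCasp10-3 minus H929 shCasp10-3 the replicate block gave 0, as without it, array weights gave 1 and leaving out 1 array 0 to 4. The cause was not tested.

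CASP10 minus its H929 value reversed to -0.29 without the wide arrays and to -0.21 with array weights, and ran from -0.10 to 0.35 when 1 array was left out. HSP90AA1, near 0 in the response, reversed to 0.016 on centred arrays and ran from -0.0786 to 0.0248 when 1 day was left out, and BNIP3L, at -0.44 in the response, from -0.73 to 0.0096. CASP10 kept its sign and its side of the threshold in the response under each alternative. Of the other values of single genes, 1426 of the response, 56 of the change with day, 111 against shCasp10-2 and 153 against H929 kept both; 4 of the change with day and 17 against shCasp10-2 newly passed, and 15 against shCasp10-2 no longer did. Without intensities, signal over background is unknown, so low probes could not be set aside.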

Other observations

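Unnamed probes of one range of identifiers had high values late in the course. Among the 596 unnamed probes whose identifiers start with digits from 22 to 25, a block chosen after its values were seen, the median log2 ratio was -0.23, 0.09, 0.27 and 0.51 on days 2 to 5, and 72.5% were above 0 on day 5. The 910 named probes of the same block had medians of -0.17, 0.02, 0.14 and 0.22. The other 4481 unnamed probes had -0.09, -0.10, -0.01 and -0.001, and the other 9259 named probes -0.05, -0.07, -0.02 and -0.03. The median of the unnamed block was 0.17 and 0.20 on days 4 and 5 of H929 with shCasp10-3 and 0.16 on day 4 of KMS12 with shCasp10-2.

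The 21 features that passed without day 2 had means of 1.14 to 1.90 on days 3 to 5, and 19 of them are unnamed probes. Their shared adjusted p was 0.04996 in limma, just under the threshold. All 21 were below 0 on days 2 and 3 of H929 with shCasp10-3, with a median of -4.84 on day 3, and 18 were above 0 on its day 4, with a median of 1.29.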
